A study of Rattus norvegicus with 35 samples.

Results

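Bisphenol A (BPA) given at 250 µg/kg body weight a day was compared with the dose of 25 µg/kg a day in the mammary gland of female Sprague-Dawley rat offspring. The comparison holds the 5 arrays whose titles give BPA250 and the 5 whose titles give BPA25, 10 of the 35 arrays of the series, each with RNA of the abdominal left gland at postnatal day 21. In both groups the pregnant dam received BPA by gavage from gestational day 10 to 21 and no dietary supplement, so that the dose is the only difference the labels give. The 25 other arrays are 5 negative controls and 4 groups of 5 in which the same 2 doses were combined with genistein (250 mg/kg chow) or indole-3-carbinol (2000 mg/kg chow). The design text takes the offspring from different litters, but no label ties an array to a litter, and p-values therefore measure the spread between these arrays, some of which may share a dam.

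BPA is a monomer of polycarbonate plastics and epoxy resins that binds oestrogen receptors weakly. At weaning the rodent mammary gland is a small ductal tree of luminal and basal epithelium in a fat pad that also holds adipocytes, vessels, nerves and immune cells, and thin sheets of skeletal muscle lie beneath the skin beside it. Striated muscle contracts when calcium released at the triad lets myosin pull on actin, and slow and fast fibres use different forms of myosin, troponin and calcium pump. Many muscle genes are controlled by myogenic factors, which bind a short site called the E-box, and by MEF2 factors, which bind an A/T-rich site. In whole-tissue RNA, fewer cells of a type and less RNA per cell cannot be told apart.

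The arrays differed in signal by slide. On the 4 arrays of slide 3, which carry a BPA25 and a BPA250 sample (replicate 2 of each), between 93.5% and 96.5% of spots were well above background, against 32.5% to 50.6% on the 25 arrays of slides other than 3, 4 and 5. The BPA250 replicate 3 array, on slide 5, stood between them at 72.6%. Spots well above background made up 55.2% ± 22.5 (SD, n = 5) after BPA25 and 58.8% ± 24.2 (SD, n = 5) after BPA250, and this share did not differ beyond its spread (exact permutation test, two-sided, p = 0.913, n = 5). The first principal component of the 10 arrays held 62.9% of the variance and set both slide 3 arrays apart from the other 8. BPA25 and BPA250 samples met on slide 1 (replicate 1), slide 3 (replicate 2) and slide 7 (replicate 4), and list medians of the difference within those slides are given beside the pooled ones. The gland's own cell types were present in both groups: all 14 measured white adipocyte markers were well above background on all 10 arrays, and so were 4 of 13 luminal and 7 of 9 basal epithelial markers.

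No gene passed the test between the doses. Of 16150 genes, 0 (percent called 0) had a Benjamini-Hochberg adjusted p under 0.05 in limma, and the smallest adjusted p was 0.999955. At an unadjusted p under 0.05, 272 genes (1.68%) were counted, fewer than the 808 expected when no gene differs and arrays are independent. Arrays of a slide were not independent, with a consensus correlation of 0.58, and the fit has no slide term. The count was 661 with slide as a fixed block, 736 as a random block and 645 without slide 3. The shortfall therefore does not measure how alike the doses were. Of the 272, 124 (0.768%) had higher and 148 (0.916%) had lower values after BPA250. The split moved with the scaling: with each array centred on its median, 25 of 133 were higher, and with a normexp background correction 13 of 57. That correction also adds an offset of 50 to the signal, which by itself makes log2 differences of dim probes smaller. Whatever their p, 91 genes (0.563%) were higher by a log2 fold change of at least 1 and 171 (1.06%) lower by as much. Whatever the size, 44.1% of all genes were higher and 55.9% lower, and counts of list members are to be read against these shares. All values below are log2 levels relative to the 75th percentile of the array, and differences are log2 fold changes of BPA250 minus BPA25 with the standard error of the fit, so that a negative difference is a lower level at the higher dose. The median difference over all genes was −0.04, and −0.16 with each array centred on its median, a shift that small differences of single genes and lists are to be read against. Members are therefore described by their values, and no gene is said to have changed.

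**Figure D1:**
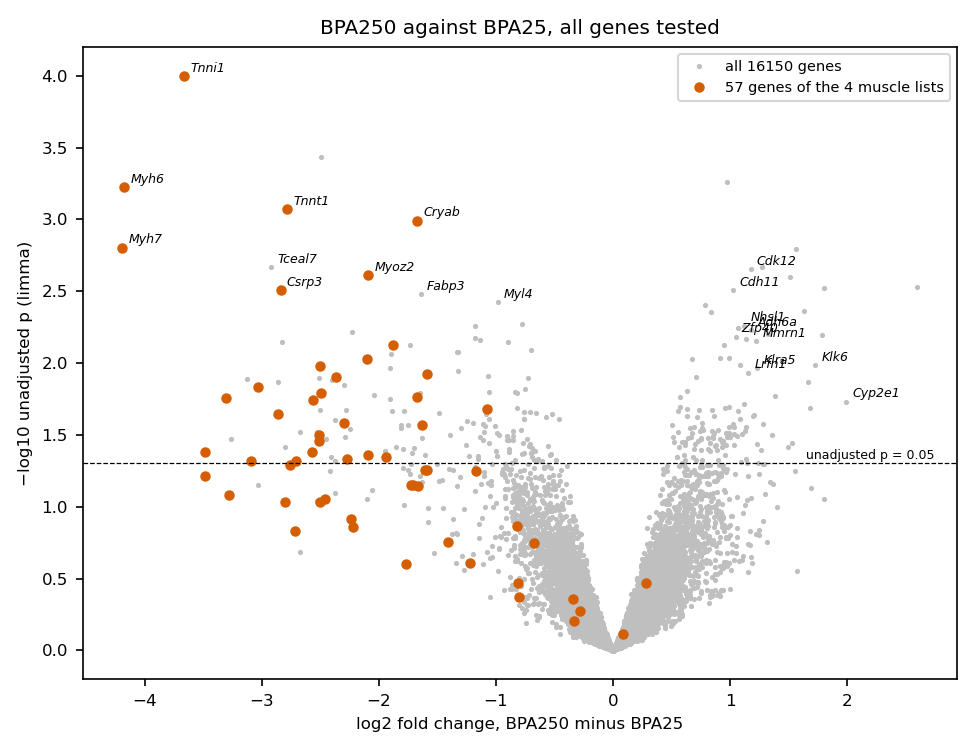
Difference between the doses (x axis, log2 fold change of BPA250 minus BPA25) against the −log10 of limma's unadjusted p (y axis) for all 16150 genes, with the 57 measured genes of the 4 muscle lists in orange and the leading genes named. Of the 57 muscle genes, 55 lie left of 0 and 30 lie above the dashed line at an unadjusted p of 0.05. Of all 16150 genes, 55.9% lie left of 0 and 1.68% above that line. The muscle lists were chosen with earlier results of these data known.

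Of the 10 named lower genes with the smallest unadjusted p, 7 belong to a muscle list, and the leading higher genes belong to none. The array probes behind 7 of these genes are shown first because each reported level rests on a single 60-base oligonucleotide. The probes are written 5′ to 3′ with positions in rn3, the build of the array files. The probe of Myh6 is placed in the files over a longer stretch than its 60 bases, and so is that of Adh6a.
Tnni1, slow skeletal troponin I, chr13:48854116-48854175, plus strand: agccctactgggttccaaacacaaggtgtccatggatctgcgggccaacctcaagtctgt
Myh6, alpha cardiac myosin heavy chain, chr15:33060276-33060683, minus strand: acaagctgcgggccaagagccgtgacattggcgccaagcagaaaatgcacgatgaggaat
Myoz2, a Z-disc protein of slow fibres, chr2:219672946-219673005, minus strand: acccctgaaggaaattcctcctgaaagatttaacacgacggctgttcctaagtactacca
Csrp3, muscle LIM protein, chr1:98679984-98680043, minus strand: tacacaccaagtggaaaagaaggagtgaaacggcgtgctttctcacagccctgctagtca
Fabp3, the fatty acid binding protein of muscle and heart, chr5:149354209-149354268, plus strand: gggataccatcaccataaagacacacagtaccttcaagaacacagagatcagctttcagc
Klk6, a secreted serine protease, chr1:94339425-94339484, plus strand: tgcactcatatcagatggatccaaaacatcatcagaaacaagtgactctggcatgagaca
Adh6a, an alcohol dehydrogenase, chr2:235835376-235837072, plus strand: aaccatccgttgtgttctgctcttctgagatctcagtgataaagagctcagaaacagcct

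The genes with the most negative differences among those named, Myh7, Myh6 and Tnni1, are slow-fibre genes, although the median of the slow-fibre list was not the lowest of the muscle lists. Tnni1, the inhibitory troponin of slow fibres, stood at 2.22, −0.66, 0.26, 1.49 and 1.35 on BPA25 arrays 1 to 5 and at −3.99, −0.07, −1.41, −4.33 and −3.86 on BPA250 arrays 1 to 5. BPA250 arrays 1, 4 and 5 lay far below every BPA25 array and were not well above background, while the slide 3 array of the BPA250 group lay above that of the BPA25 group. The difference was −3.66 ± 0.83 (SE), with an unadjusted p of 0.0001 in limma, and the 5 control arrays averaged 0.10 ± 0.90 (SD, n = 5). Tnnt1, slow troponin T, had levels of 2.02, −0.95, 0.88, 2.46 and 2.24 after BPA25 and −2.24, −0.34, −0.44, −1.97 and −2.26 after BPA250, and its difference was −2.78 ± 0.76 (SE). Tnnt1 likewise overlapped between the groups only through BPA25 array 2, the array on slide 3.

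The slow myosin heavy chain Myh7 stood at 4.25, −0.01, 2.70, 4.13 and 3.95 after BPA25 and at −1.80, 0.82, 0.07, −4.82 and −0.20 after BPA250, a difference of −4.19 ± 1.22 (SE). Myh6, its neighbour in the genome, ran almost in parallel, with 4.16, 0.52, 2.54, 3.95 and 3.76 against −1.29, 0.74, 0.16, −4.57 and −0.99, a difference of −4.18 ± 1.10 (SE). Both are near-identical copies, so that cross-hybridisation between their probes is possible and was not tested. The control means lay between those of the doses, at 1.78 ± 1.20 (SD, n = 5) for Myh7 and 1.69 ± 1.09 (SD, n = 5) for Myh6. Choosing genes by the difference between the doses favours such a place. Myoz2, which tethers calcineurin to the Z-disc, had its BPA25 levels at 0.29, −0.84, −1.68, −0.65 and −0.80 and its BPA250 levels at −4.29, −0.92, −1.65, −4.56 and −2.71. Csrp3, a Z-disc protein of slow and cardiac muscle, had levels of 1.95, −1.30, −0.95, 1.99 and 0.53 against −3.76, −1.15, −0.47, −4.10 and −2.48. For both, BPA250 arrays 1, 4 and 5 were the 3 lowest of the 10 and arrays 2 and 3 lay among the BPA25 values. Over the slow-fibre list, 14 of 16 genes were measured, 13 of the 14 had lower values after BPA250, 9 of them at an unadjusted p under 0.05 (0.916% of all genes were lower at that threshold), and the median difference was −1.98.

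**Figure D2:**
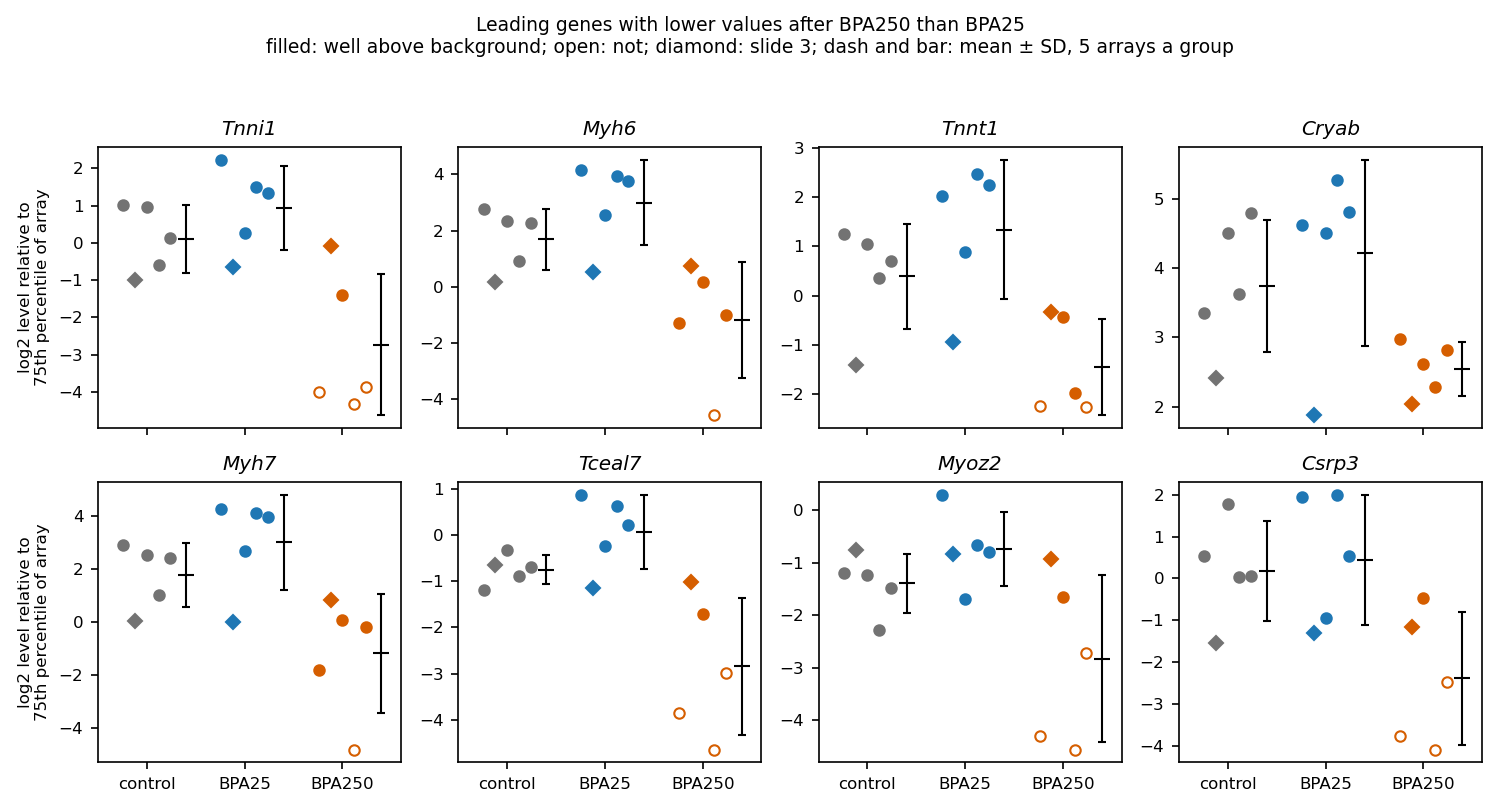
Log2 level relative to the array's 75th percentile (y axis) on each control, BPA25 and BPA250 array (x axis) for the 8 leading lower genes, with filled points well above background, open points not, diamonds for slide 3, and mean ± SD of 5 arrays beside each group. For Tnni1, BPA250 arrays 1, 4 and 5 lie between −4.33 and −3.86, and the diamonds of BPA25 and BPA250 lie at −0.66 and −0.07.

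Fast-fibre genes were lower on average too, with a wider spread. Mybpc2, fast myosin-binding protein C, had levels of 2.59, −0.05, 2.64, 2.42 and 3.06 after BPA25 and −0.34, 0.53, −0.20, −4.70 and −1.14 after BPA250. Atp2a1, the fast-fibre calcium pump, stood at 2.67, −0.16, 2.48, 2.22 and 3.14 against 0.31, 0.30, 0.36, −4.06 and −0.86. For both genes 4 of the 5 BPA25 arrays lay above every BPA250 array, and BPA25 array 2 lay inside the BPA250 range. Their differences were −3.30 ± 1.32 and −2.86 ± 1.20 (SE). Eno3, muscle enolase, stood at 6.09, 2.71, 6.22, 6.57 and 6.68 against 4.50, 3.73, 3.76, 1.09 and 3.69, well above background on all 10 arrays, and its difference was −2.30 ± 0.99 (SE). Myh2, the myosin heavy chain of oxidative fast fibres, differed by −3.49 ± 1.65 (SE), and its second probe by −3.05. All 17 measured fast-fibre genes of 20 listed had lower values after BPA250, with a median of −2.51. At an unadjusted p under 0.05, 6 of them were lower, against 0.916% of all genes. The medians of the fast-fibre list were −0.12 for BPA25 minus control and −2.88 for BPA250 minus control, 2 comparisons that share the control arrays.

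Genes of the sarcomere scaffold list also had lower means after BPA250. Cryab, a small heat-shock protein that binds desmin and titin, had levels of 4.62, 1.88, 4.50, 5.27 and 4.80 after BPA25 and 2.97, 2.04, 2.61, 2.28 and 2.81 after BPA250. It was well above background on every array, and BPA25 array 2 was the only BPA25 array within or below the BPA250 range. Its difference was −1.67 ± 0.46 (SE), with an unadjusted p of 0.00102 in limma. Mybpc1, slow myosin-binding protein C, differed by −2.50 ± 0.92 (SE; a second probe gave −1.62) and Actn2, the Z-disc crosslinker alpha-actinin, by −1.59 ± 0.60. All 18 measured scaffold genes of 21 listed were lower, with a median of −1.69. At an unadjusted p under 0.05, 10 of them were lower, against 0.916% of all genes. Des, desmin, which is also a vascular smooth muscle gene, differed by −1.17 ± 0.59 (SE).

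Most measured genes of the triad, where the action potential releases calcium, had lower means as well. Jsrp1, a protein of the junctional membrane, had levels of 1.42, −0.33, 1.75, 1.70 and 2.36 after BPA25 and 0.32, 0.08, −0.43, −2.34 and −1.22 after BPA250, a difference of −2.10 ± 0.76 (SE). Ryr1, the calcium release channel, differed by −2.37 ± 0.89 (SE; second probe −2.29), Stac3, which couples it to the voltage sensor, by −2.51 ± 1.12, and Cacna1s, the voltage sensor itself, by −2.51 ± 1.14. Stac3 spread between −0.22 and 0.15 on the 5 BPA25 arrays but between −4.83 and 0.44 on the BPA250 arrays. Of 15 listed genes 8 were measured and 7 were lower, and the median was −2.23. At an unadjusted p under 0.05, 5 of them were lower, against 0.916% of all genes.

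Regulators of muscle were split. Only 6 of 15 listed were measured, 4 of them higher and 2 lower, with a median of 0.16 and none at an unadjusted p under 0.05. Myog, myogenin, which drives myoblast differentiation, differed by −1.63 ± 0.86 (SE) and Myod1, which commits cells to the muscle lineage, by −1.34 ± 0.92, and Myod1 was well above background on 3 BPA25 arrays and 1 BPA250 array. Mef2d, a MEF2 factor, differed by 0.55 ± 0.38 (SE), and Pax3, a factor of muscle precursors, by 0.87 ± 0.82. All 10 listed genes of the neuromuscular junction were below the filter on dim probes in all groups and were not tested. The median of the regulators was −0.17, 0.53 and −0.84 within slides 1, 3 and 7.

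Across the 4 lists of contractile and calcium-handling genes together, 57 were measured, 55 had lower values after BPA250 (55.9% of all genes did), and 30, or 52.6%, were lower at an unadjusted p under 0.05, against 0.916% of all genes. They made up 20.3% of the 148 lower genes. These lists were chosen with earlier results of these data known. Their levels also moved together: all 4 were lowest on BPA250 array 4, and on BPA25 array 2 within the BPA25 group. The counts therefore describe a shared signal of few arrays and are no test of the lists. In none of the 57 genes did all 5 BPA250 arrays lie below all 5 BPA25 arrays, which was so for 0.0743% of all genes. Among the 19 that were well above background on all 10 arrays, 17 were lower, with a median of −1.59. Within slide 1 the list medians of the difference ran from −3.92 (slow fibre) to −1.67 (fast fibre), and within slide 7 from −6.80 (fast fibre) to −3.02 (scaffold). Within slide 3 all 4 were above 0, from 0.37 (scaffold) to 1.02 (fast fibre). Without slide 3 the medians were −2.57 for slow fibre, −3.50 for fast fibre, −2.19 for scaffold and −2.97 for excitation-contraction coupling. Other settings gave sizes smaller than those without slide 3, listed here in the same order. Fitting slide as a fixed block gave −2.10 (−1.98 in the main fit), −1.13, −1.13 and −1.12. A normexp background correction with an offset of 50 gave −0.755, −1.86, −0.62 and −0.79. The parts of the correction and of the offset in these smaller sizes were not tested. The members well above background on all 10 arrays, 4, 7, 6 and 2 genes, gave −0.31, −2.30, −1.29 and −0.75. This filter leaves out members at background on some BPA250 arrays, such as Tnni1 and Myh7, which by itself can make the sizes smaller. No gene was called with any of these 3 settings. Without slide 3, 4 genes passed the test: Tnni1 at −4.72, Tnnt1 at −3.63, Cryab at −2.13 and a transcript that the files name XM_214266 at −3.28, with limma adjusted p of 0.00381, 0.0338, 0.00800 and 0.00381. Without BPA25 replicate 2 alone, Cryab passed at −2.26 with a limma adjusted p of 0.0344. With weights estimated for each array, limma called 39 genes, 21 of them lower and 10 in these lists. With normexp the differences of Tnni1, Myh7 and Cryab were −1.31, −2.46 and −1.35, and none of the 57 was called.

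**Figure D3:**
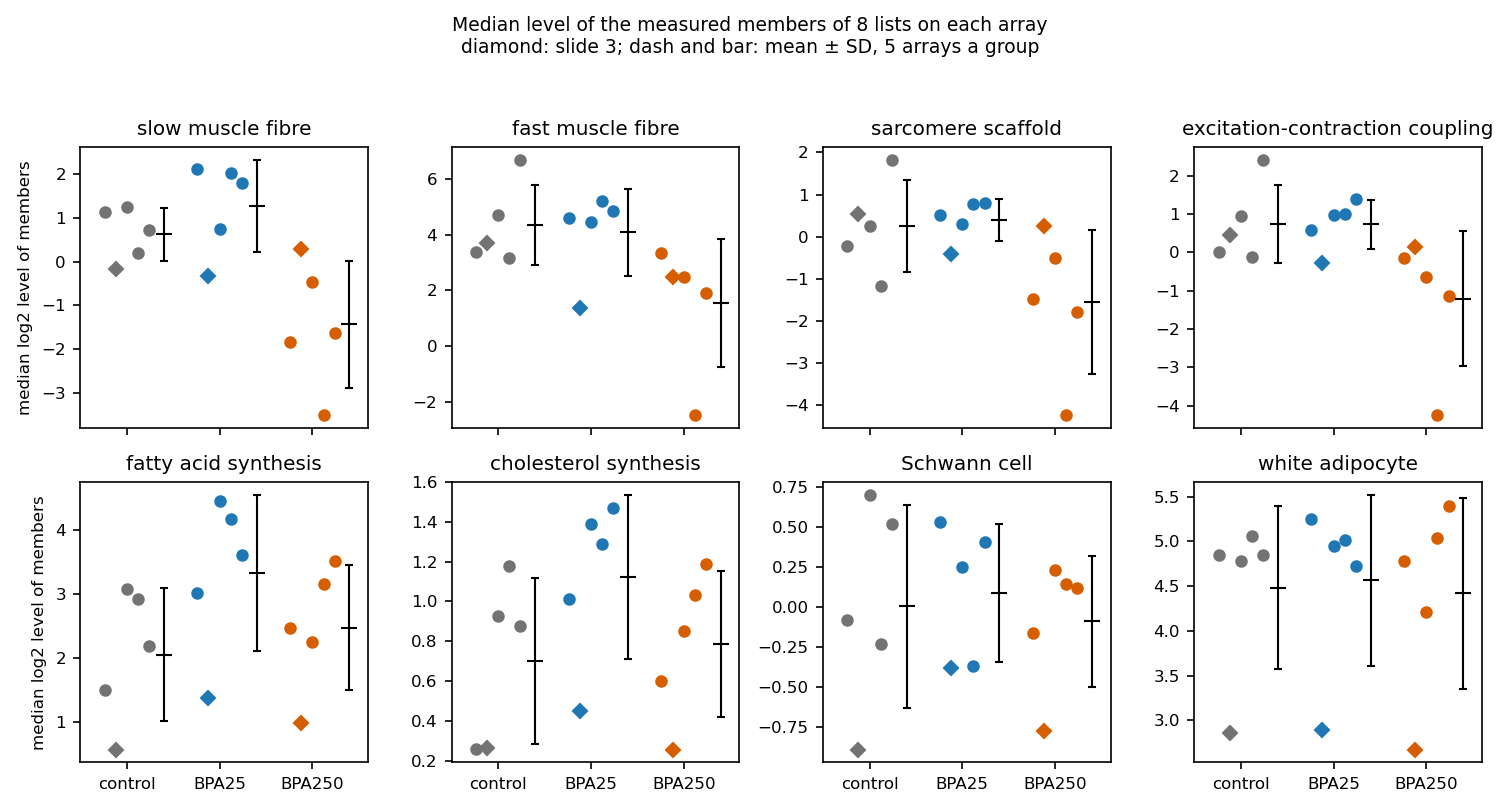
Median log2 level of the measured members of 8 lists (y axis) on each control, BPA25 and BPA250 array (x axis), with diamonds for slide 3 and mean ± SD of 5 arrays beside each group. The slow-fibre list runs from −0.33 to 2.12 on BPA25 arrays and from −3.51 to 0.29 on BPA250 arrays, and the white adipocyte list from 2.89 to 5.25 and from 2.67 to 5.39.

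Some markers of peripheral nerve, which runs with muscle and skin, were lower as well. Prx, periaxin of the myelin sheath, stood at 0.12, −1.73, −1.45, −2.17 and 0.04 after BPA25 and at −2.56, −2.11, −1.20, −2.67 and −3.32 after BPA250, a difference of −1.34 ± 0.48 (SE). BPA25 arrays 1 and 5 held the highest Prx levels, and BPA250 arrays 2 and 3 lay among the BPA25 values. Mbp, myelin basic protein, differed by −1.15 ± 0.55 (second probe −1.21). Of 9 measured Schwann cell genes of 12 listed, 8 were lower, with a median of −0.38, beside 55.9% of all genes that were lower. At an unadjusted p under 0.05, 3 of them were lower, against 0.916% of all genes. The 1 that was higher was Egr2, also an immediate early gene, at 0.74. The median level of the list ran from −0.38 to 0.53 on BPA25 arrays and from −0.77 to 0.23 on BPA250 arrays. On BPA250 arrays 1, 4 and 5, where slow-fibre genes were lowest, the Schwann list stood at −0.16, 0.15 and 0.12, and its lowest BPA250 value was that of array 2, on slide 3. The list medians of the difference were −0.70, −0.29 and −0.44 within slides 1, 3 and 7. Without slide 3 Prx differed by −1.58. The part of nerve in the difference of the muscle genes was not tested.

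The promoters of 3 leading lower genes are shown as examples that hold the E-box CAGCTG. They are not a sample of the leading lower genes, of which 4 of 8 with a promoter hold it. Other leading genes, such as Tnni1 and Tnnt1, had low values on the same arrays. Each promoter shown is the 250 bases before a gene start in RefSeq (GRCr8), 5′ to 3′ along the gene. Matches to CAGCTG and to a MEF2 site are in capitals. For Myh6 and Myh7 the start that the table uses lies inside the span RefSeq gives the gene.
Myoz2, chr2:213852779-213853028, minus strand: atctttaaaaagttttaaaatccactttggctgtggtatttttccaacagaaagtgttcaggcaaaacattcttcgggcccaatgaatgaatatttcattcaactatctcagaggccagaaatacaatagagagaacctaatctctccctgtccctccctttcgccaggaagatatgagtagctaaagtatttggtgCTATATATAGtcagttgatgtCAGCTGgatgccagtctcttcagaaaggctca
Myh6, chr15:32411698-32411947, minus strand: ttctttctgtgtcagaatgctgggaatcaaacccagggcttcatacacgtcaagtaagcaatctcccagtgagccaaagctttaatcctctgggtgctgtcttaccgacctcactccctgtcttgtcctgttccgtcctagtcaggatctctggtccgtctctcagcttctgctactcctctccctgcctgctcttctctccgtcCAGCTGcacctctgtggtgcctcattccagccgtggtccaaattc
Myh7, chr15:32438195-32438444, minus strand: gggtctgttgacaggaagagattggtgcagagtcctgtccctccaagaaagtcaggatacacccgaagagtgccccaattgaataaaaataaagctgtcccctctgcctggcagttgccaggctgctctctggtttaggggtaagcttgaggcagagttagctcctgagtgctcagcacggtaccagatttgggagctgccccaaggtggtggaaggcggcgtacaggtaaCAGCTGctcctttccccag
CAGCTG reads the same on both strands and does not overlap the MEF2 match in the Myoz2 promoter. It occurred in 11.9% of all 27457 promoters of the table, in 16 of the 45 muscle-list genes with a promoter (35.6%), in 4 of 8 leading lower genes and in 0 of 9 leading higher genes. The MEF2 motif, searched on both strands, occurred in 3.07% of all promoters and 1.42% of the promoters of tested genes, in 6 of the 45 (13.3%), in 1 of 8 leading lower and in 1 of 9 leading higher genes. A match describes the letters only.

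For all 10 leading lower genes the control mean lay between the means of the doses, nearer to BPA25. These genes were chosen by the difference between the doses, which by itself favours a control mean between them. Of the 10, 3 are not in a muscle list. Fabp3 had levels of 1.80, 0.22, 0.71, 0.95 and 0.17 after BPA25 and −1.52, 0.52, −0.70, −0.90 and −1.76 after BPA250, and it was well above background on all 10 arrays. Only BPA250 array 2 reached the BPA25 range, and the difference was −1.64 ± 0.52 (SE). Tceal7, a small nuclear protein of the transcription elongation factor family, differed by −2.92 ± 0.88 (SE), with 2 of 5 BPA250 arrays well above background. Myl4, the atrial and embryonic myosin light chain, differed by −0.98 ± 0.32 (SE), from 1.48 ± 0.46 to 0.50 ± 0.53 (SD, n = 5), and control arrays stood at 1.02 ± 0.27 (SD, n = 5).

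The leading higher genes were dim, and for all 10 the control mean lay between the means of the doses, nearer to BPA250 for 8. Here too the choice of genes by the dose difference favours a control mean between the doses. Mmrn1, multimerin of platelets and endothelium, had levels of −1.27, −1.44, −1.74, −1.35 and −1.88 after BPA25 and 0.43, −1.16, −0.63, −0.22 and 0.03 after BPA250, and its difference was 1.22 ± 0.43 (SE). It was the only one of the 10 whose groups did not overlap, which was so in this direction for 0.13% of all genes, and control arrays averaged −0.46 ± 0.49 (SD, n = 5). Cdk12, a kinase of transcription elongation, had levels of −0.86, −1.06, −1.36, −2.50 and −3.34 after BPA25 and −0.28, −1.05, −0.86 and −0.41 on BPA250 arrays 1, 3, 4 and 5, where array 2 was left out by an outlier flag. BPA25 arrays 4 and 5 were not well above background for Cdk12, and its difference was 1.18 ± 0.35 (SE), with an unadjusted p of 0.00221 in limma, the smallest of the 10. Cdh11, a cadherin of mesenchymal cells, had levels of −1.92, −1.26, −3.05, −2.78 and −1.91 against −0.96, −1.03, −0.80, −1.39 and −1.62, and only the slide 3 array of BPA25 reached the BPA250 range. Its difference was 1.02 ± 0.32 (SE).

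Cyp2e1, a cytochrome P450 of ethanol and ketone metabolism, differed by 1.99 ± 0.80 (SE), with 2 of 5 BPA25 arrays well above background, from −2.62, −0.57, −3.49, −3.92 and −3.35 after BPA25 to 0.01, −0.26, −0.46, −1.42 and −1.84 after BPA250. Control arrays for Cyp2e1 were spread over both groups, from −2.92 to 0.13. Klk6 differed by 1.72 ± 0.63 (SE), and its highest BPA250 levels were −0.29 and −0.89 on arrays 3 and 1. Adh6a differed by 1.18 ± 0.40, Nhsl1, an actin regulator, by 1.12 ± 0.38, and Zfp40, a zinc-finger protein, by 1.05 ± 0.36 (SE). Klra5, a receptor of natural killer cells, differed by 1.23 ± 0.46 and Lrfn1, a synaptic adhesion protein, by 1.15 ± 0.43 (SE), and Klra5 owed its spread to BPA250 array 4 at 0.91. Each of Nhsl1, Adh6a and Lrfn1 was well above background on 1 of 5 BPA25 arrays. With a normexp background correction and its offset of 50, the difference of Adh6a was −0.03, and the other 9 lay between 0.15 (Nhsl1) and 0.50 (Cyp2e1). Without slide 3 the differences were 1.37 for Cdk12, 1.46 for Mmrn1 and 2.41 for Cyp2e1, and none of the 10 was called. With array weights 3 of the 10 were called, Cdk12 at 1.40, Adh6a at 1.82 and Zfp40 at 1.43, with limma adjusted p of 0.0250, 0.0169 and 0.0294.

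**Figure D4:**
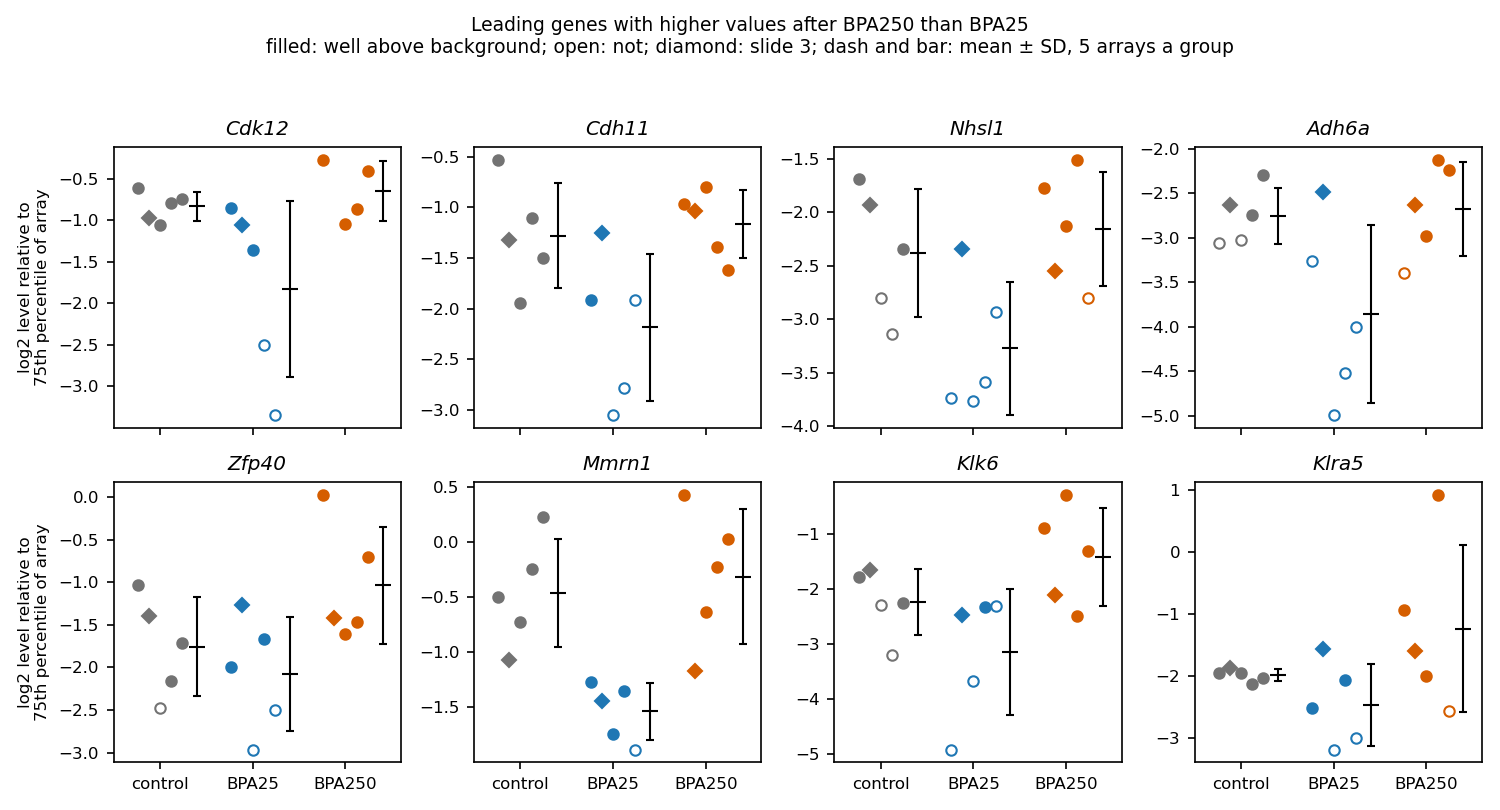
Log2 level relative to the array's 75th percentile (y axis) on each control, BPA25 and BPA250 array (x axis) for the 8 leading higher genes, with filled points well above background, open points not, diamonds for slide 3, and mean ± SD beside each group (5 arrays, 4 for Cdk12 after BPA250). For Mmrn1 the BPA25 arrays lie between −1.88 and −1.27 and the BPA250 arrays between −1.16 and 0.43.

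Enzymes of fatty acid synthesis were mostly lower after BPA250. Scd, stearoyl-CoA desaturase, had levels of 7.31, 5.93, 8.79, 8.34 and 7.02 after BPA25 and 5.48, 4.69, 5.98, 6.75 and 6.96 after BPA250. All BPA25 arrays but the slide 3 array lay above all BPA250 arrays, and the difference was −1.50 ± 0.74 (SE) with an unadjusted p of 0.0502 in limma. On control arrays Scd averaged 6.07 ± 1.31 (SD, n = 5), close to BPA250, and without slide 3 the difference was −1.57. Scd2, a second desaturase, differed by −1.58 ± 0.94 (its other probes by −0.71 and −0.50), Pnpla3, a lipid droplet hydrolase, by −1.09 ± 0.65, and Me1, malic enzyme, which supplies NADPH, by −0.95 ± 0.67 (SE). Of 14 measured genes of 17, 12 were lower (55.9% of all genes were), none at an unadjusted p under 0.05. The median was −0.47, with −0.53, −0.14 and −0.84 within slides 1, 3 and 7.

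Cholesterol enzymes differed less. Fdps, which makes farnesyl diphosphate, differed by −0.77 ± 0.42 (second probe −0.92), Sc5d and Cyp51, late enzymes of the pathway, by −0.41 ± 0.32 each (SE), and Insig1, the sterol-regulated retention protein, by −0.58 ± 0.62. Fdps levels were 3.78, 2.80, 5.03, 5.16 and 4.61 after BPA25 and 3.46, 2.78, 3.13, 3.87 and 4.27 after BPA250, which overlapped. Of 19 measured enzymes of 20, 18 were lower (55.9% of all genes were), with a median of −0.30. Of 12 measured sterol regulators 6 were lower, with a median of −0.06. Mgll, monoacylglycerol lipase, differed by −0.84 ± 0.53 among 11 measured triglyceride genes with a median of −0.20, and Lep, leptin, by −0.38 ± 0.32 among 14 white adipocyte genes with a median of −0.25. None of these lists held a gene at an unadjusted p under 0.05. Within slides 1, 3 and 7 the medians were −0.32, −0.23 and −0.55 for cholesterol synthesis, 0.24, −0.30 and −0.08 for sterol regulators, −0.41, −0.27 and −0.47 for triglyceride genes and −0.15, −0.17 and −0.14 for white adipocyte genes. The white adipocyte median was 0.026 without slides 3, 4 and 5, and leaving out single arrays moved it from −0.62 to 0.14 and that of triglyceride genes from −0.65 to 0.17.

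All 24 measured subunits of oxidative phosphorylation had lower values after BPA250, by a median of −0.25, beside 55.9% of all genes that were lower. The 2 with the smallest p were Cox6a2, the muscle form of a cytochrome oxidase subunit, at −1.36 ± 0.69, and Ndufv1, a complex I subunit, at −0.46 ± 0.36 (SE). Cox8b, an isoform of muscle and brown fat, differed by −1.78 ± 1.04 (other probes −1.80 and −1.65) with levels of 4.62, 0.95, 3.33, 4.92 and 3.93 against 2.97, 2.05, 1.89, 0.27 and 1.66. It led the brown adipocyte list, of which 5 of 7 measured genes were lower with a median of −0.31. With slides 3, 4 and 5 left out, the median of oxidative phosphorylation was 0.01 and that of brown adipocyte genes −0.09, and within slides 1, 3 and 7 the medians were −0.22, −0.45 and 0.05 for oxidative phosphorylation and −0.29, −0.24 and −0.14 for brown adipocyte genes.

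Epithelial genes showed no common direction in the luminal list. Krt7, a luminal keratin, differed by −0.56 ± 0.58 (SE), and of 13 measured luminal genes 7 were higher and 6 lower, with a median of 0.00. The 9 measured basal genes were all lower (55.9% of all genes were), with a median of −0.34 and none at an unadjusted p under 0.05. Oxtr, the oxytocin receptor of myoepithelium, differed by −0.80 ± 0.61 and Tagln, a smooth muscle actin-binding protein, by −0.54 ± 0.36 (SE). Csn2, beta-casein, was well above background on all 10 arrays, at −1.22, −1.75, −0.61, −1.22 and −0.60 after BPA25 and −0.74, −1.90, 0.56, −1.75 and −1.64 after BPA250, a difference of −0.02 ± 0.49 (SE) whose sign turned under several other settings. Csn3, kappa-casein, differed by 0.34 ± 0.55, also with a sign that turned, and the 5 measured milk protein genes had a median of 0.13. The basal median was 0.13, −0.49 and 0.16 within slides 1, 3 and 7, so that its direction turned on slides 1 and 7. The luminal median was −0.15, −0.19 and 2.10 and the milk protein median 1.29, −0.69 and 2.17 within these slides, and with normexp they were −0.11 and −0.23.

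The receptors BPA could act on were mostly too dim to test. Esr1 and Pgr, the oestrogen and progesterone receptors, were well above background on 1 BPA25 array and 2 BPA250 arrays each at best, Esr2 and Ahr on 1 and 1, and Gper1 and the dioxin-inducible Cyp1a1 on 1 and 3, so none of them was tested. Cyp1b1, an oestrogen-metabolising P450, differed by 0.32 ± 0.44 (SE; second probe 0.47). Tff3, a trefoil peptide raised by oestrogen in breast cells, stood at −2.41, −1.06, −2.17, −2.22 and −2.18 after BPA25 and at −0.96, −1.19, −1.72, −1.84 and −1.40 after BPA250, a difference of 0.59 ± 0.29 (SE). All BPA25 arrays but the slide 3 array lay below all BPA250 arrays, and control arrays averaged −1.94 ± 0.36 (SD, n = 5). Without slide 3 the difference of Tff3 was 0.77. Tff1, the related peptide, differed by 0.79 ± 0.41. Of 10 measured genes of the oestrogen list 6 were higher, Tff3 alone at an unadjusted p under 0.05 (0.768% of all genes were higher at that threshold), with a median of 0.26. That median turned to −0.026 with normexp, where Tff3 differed by 0.07 and Tff1 by 0.04, and to −0.21 over members well above background on all 10 arrays. It was 0.43, −0.31 and 0.46 within slides 1, 3 and 7.

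Of 11 measured glucocorticoid-induced genes 9 were higher (44.1% of all genes were), with a median of 0.18 and none at an unadjusted p under 0.05. Zbtb16, a strongly induced repressor, differed by 1.14 ± 0.65 (second probe 1.29) and Per1, also a clock gene, by 0.63 ± 0.38 (SE). Nr1d1, the clock repressor REV-ERB alpha, differed by 1.18 ± 0.67, while 6 of 9 clock genes were lower. With normexp, Nr1d1 differed by −0.06. Egr2, an immediate early gene that is also in the Schwann cell list, differed by 0.74 ± 0.59, and 7 of 10 immediate early genes were higher. Within slides 1, 3 and 7 the medians were 0.37, 0.23 and 0.05 for glucocorticoid-induced genes, −0.41, 0.07 and −0.13 for clock genes and 0.31, −0.17 and 0.09 for immediate early genes.

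Cell cycle genes were lower in 24 of 25, by a median of −0.29, none at an unadjusted p under 0.05. Of all genes, 55.9% were lower and 44.1% higher. Mcm6, a subunit of the replicative helicase, differed by −0.52 ± 0.38 and Ccnb2, a mitotic cyclin, by −0.62 ± 0.46 (SE). The list did not keep a direction within slides, at −1.12 on slide 1, −0.32 on slide 3 and 0.86 on slide 7. All 6 measured T cell genes of 15 were lower, by a median of −0.58, and Cd3e, a chain of the T cell receptor complex, ranged from −5.38 to −0.34 after BPA25 and from −4.63 to −1.41 after BPA250. Within slide 1 the T cell list was higher after BPA250, by 2.51, and within slides 3 and 7 it was lower, with −0.27 and −0.23. Of 10 mast cell genes 8 were higher, by a median of 0.35, with Gata2, a factor of mast cells and blood progenitors, at 0.79 ± 0.41 (SE). Macrophage genes had a median of 0.08, with the scavenger receptor Cd163 at 0.34 ± 0.33, and interferon-stimulated genes one of −0.20, with Isg15 at −0.66 ± 0.40 and Irf9 at 0.38 ± 0.27. Within slides 1, 3 and 7 the medians were 0.46, −0.35 and 0.54 for mast cells, 0.46, −0.10 and 0.10 for macrophages and −0.41, −0.20 and 0.20 for interferon-stimulated genes.

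Most measured vascular and stromal genes were lower, by small differences. Eng, endoglin of endothelium, had levels of 1.20, −1.03, 0.74, 0.05 and 0.41 after BPA25 and −0.84, −2.29, −0.07, −0.68 and −0.16 after BPA250, with only BPA25 array 2 inside the BPA250 range. Its difference was −1.08 ± 0.45 (SE), and within slide 3 it was lower after BPA250 as well. It was the 1 of 13 measured endothelial genes at an unadjusted p under 0.05 (0.916% of all genes were lower at that threshold). Emcn, an endothelial sialomucin, differed by −0.58 ± 0.32, and the list by a median of −0.21. Rgs5, a pericyte gene, differed by −0.59 ± 0.30, with no BPA250 value for array 2, and 6 of 9 vascular smooth muscle genes were lower, by a median of −0.36. Lum, lumican of collagen fibrils, differed by −0.67 ± 0.40. Of 17 stromal matrix genes 16 were lower (55.9% of all genes were), by a median of −0.18. Slc4a1, the red cell anion exchanger, differed by −0.52 ± 0.47 in an erythroid list with a median of −0.17. Within slides 1, 3 and 7 the medians were 0.35, −0.24 and −0.27 for endothelium, −0.05, −0.33 and −0.13 for vascular smooth muscle, 0.05, −0.45 and −0.22 for stromal matrix and 0.60, 0.11 and −1.32 for erythroid genes. The stromal median turned to 0.11 without slides 3, 4 and 5 and ran from −0.50 to 0.21 without single arrays, and the erythroid median turned to 0.034 with slide as a fixed block.

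**Figure D5:**
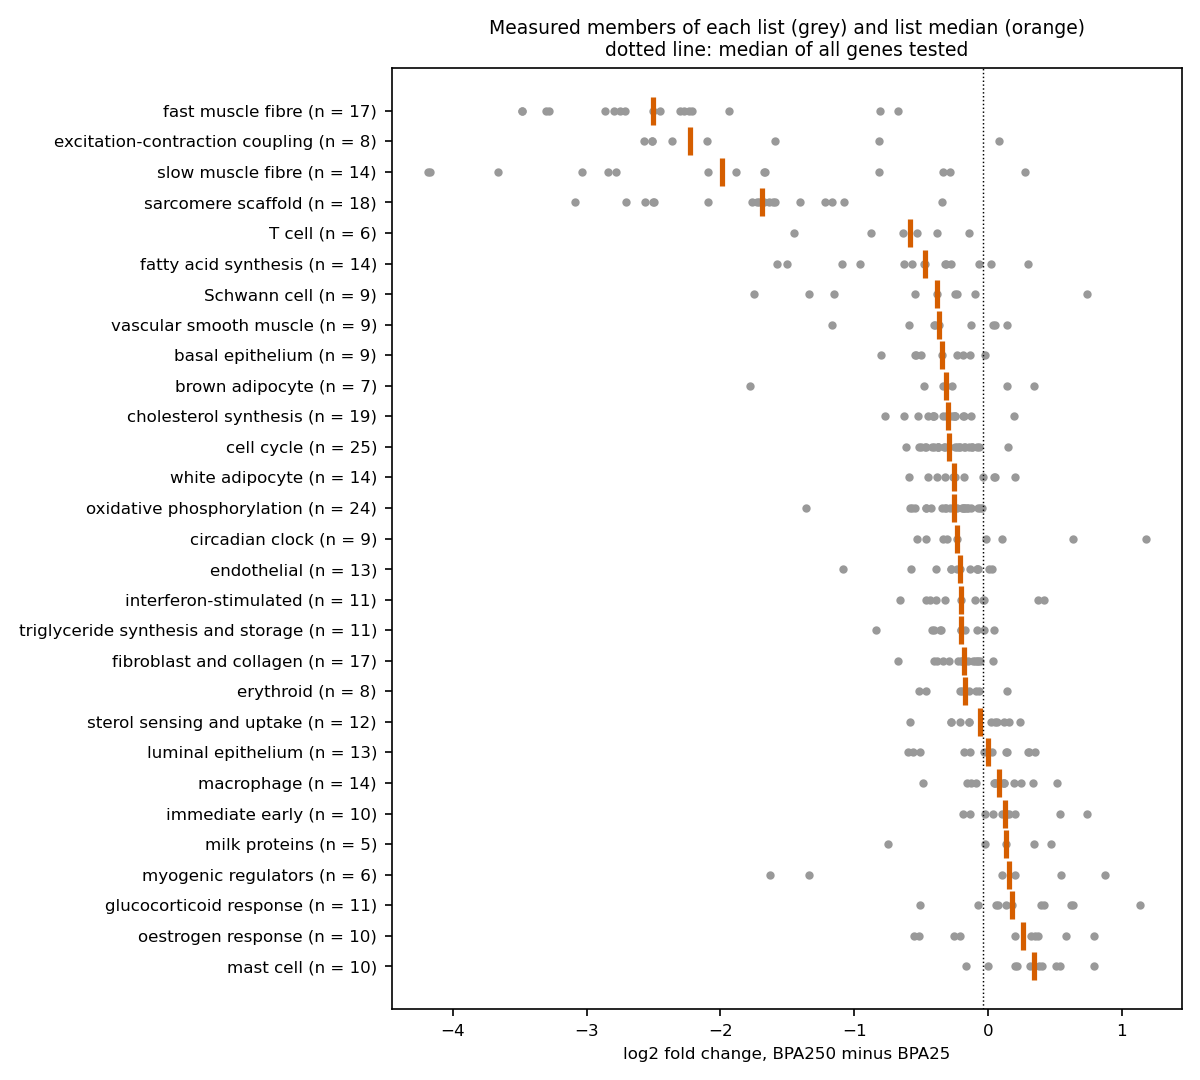
Log2 fold change of BPA250 minus BPA25 (x axis) for every measured member (grey points) of the 29 lists with at least 5 measured genes (y axis), with the list median in orange and the median of all genes as a dotted line. The 4 muscle lists have medians from −2.51 to −1.69, and the other 25 lie between −0.58 and 0.35.

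The doses were also compared with either diet, on other arrays. No gene passed the test between the doses with genistein (percent called 0; 1.97% at an unadjusted p under 0.05) or with indole-3-carbinol (0; 2.72%). Tnni1 differed between the doses by −0.52 with genistein and by 0.39 with indole-3-carbinol, and the slow-fibre list by medians of −0.02 and 0.05. The fast-fibre list had medians of 0.00 and −1.62. The test of the difference itself, diet against no diet, passed for 0 genes with genistein (1.16% at an unadjusted p under 0.05) and 0 with indole-3-carbinol (3.17%), so the dose difference is not shown to depend on diet for any gene.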

How the data were processed

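RNA was hybridised to 1-colour (Cy3) Agilent whole rat genome arrays, 1 array per sample. Per the file headers, the authors deposited for each array the spot-level output of Agilent Feature Extraction 9.5.3.1. Its processed signal is an intensity corrected by spatial and multiplicative detrending, with values near background replaced by small positive surrogates; no local background was subtracted, per the file headers. Deposited flag columns (0 or 1, other) mark outlying, saturated and well-above-background spots. The authors' deposited table of normalised values is on a log2 scale and served as an alternative; its normalisation is not given in the sources used here.

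From these intensities, log2 of the processed signal minus the array's 75th percentile was taken, outlier-flagged spots were left out, and spots of a probe were averaged. A probe was kept when well above background on at least 4 of 5 arrays of a group (18996 of 41012 probes), and the brightest probe stood for a gene, with at most 5 arrays missing. This left 16150 genes, 9412 of them named through the RefSeq table of GRCr8, to which 21307 probes were matched. The contrast of the 2 doses came from a limma 3.58.1 model (R 4.3.3) of the 7 group means over the 35 arrays, which shares 1 estimate of the spread, with Benjamini-Hochberg adjustment over all genes and a threshold of 0.05. The number of arrays limits the precision. The fit was tested on simulated data without a slide effect, so that its behaviour under the slide differences was not tested.

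Members and gene lists were chosen with earlier results of these data known. With no gene passing, the text names the 10 genes per direction of smallest unadjusted p that have a RefSeq name, a log2 fold change of at least 0.58 in size and 3 of 5 arrays of the higher group well above background; up to 4 members of smallest p per list with 5 or more measured; and Csn2, Cyp1a1, Cyp1b1, Ahr, Esr1, Esr2, Gper1 and Pgr. Some genes that this rule takes are not reported here. Alternatives changed the background correction, scaling, filter, probe rule, arrays used, blocks and weights. The normexp correction started from the mean signal and the local background of each spot, and added an offset of 50.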

Additional observations from a re-analysis of the deposited data

Results flagged for a closer look

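The values of each named gene and of the share of spots well above background were searched for single arrays far from the other 4 of their group. Of 152 groups of 4 or 5 arrays, 17 (11.2%) held such an array, where chance gives about 1 in 20, or 7.6, and 10 of the 17 arrays were on slide 3.

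BPA25 replicate 2, on slide 3, had 94.8% of spots well above background and lay apart from its group for Cryab (1.88), Mybpc2 (−0.054), Atp2a1 (−0.16), Eno3 (2.71), Ryr1 (−2.29), Des (0.16) and Ndufv1 (2.41), where it was lowest, and for Tff3 (−1.06), where it was highest. BPA250 replicate 2, on the same slide, was highest for Myod1 (−1.29). BPA250 replicate 4 was lowest for Atp2a1 (−4.06), Eno3 (1.09), Mybpc1 (−3.25) and Cacna1s (−4.79). BPA250 replicate 3 was lowest for Lrfn1 (−2.16), BPA250 replicate 1 for Pnpla3 (−1.40) and BPA25 replicate 3 for Tff1 (−3.74).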

How the results depend on the processing

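The 74 named genes and 29 list medians were recomputed under 28 alternatives, of which leaving out all arrays of slides 3, 4 and 5 was chosen after seeing the data. Of 1955 values of named genes, 1917 kept their direction and side of the threshold, 22 passed the threshold and 16 turned; 780 of 783 list medians moved by less than 1 SD between arrays, a wide margin for the muscle lists, whose SD was 1.25 to 1.97; the slow-fibre and scaffold medians were −0.755 and −0.62 with normexp, and the fast-fibre median −1.13 with slide as a fixed block. No gene was called under any alternative except without slide 3 (4), without slides 3, 4 and 5 (7), with array weights (39, of which 18 higher) and, leaving out 1 array at a time (0 to 1), without BPA25 replicate 2. Genes at an unadjusted p under 0.05 numbered 57 with normexp, 133 with median centring (25 higher), 97 with probes well above background on all 10 arrays, 645 without slide 3, 1260 without slides 3, 4 and 5, 661 with slide as a fixed and 736 as a random block, 1599 with array weights, and 163 to 729 without single arrays. With normexp the excitation-contraction list had a median of −0.79. With probes well above background on all 10 arrays it was −0.75 over 2 genes, and the slow-fibre median was −0.31 over 4 genes. Reversed values with normexp were Adh6a −0.026, Mef2d −0.019, Csn3 −0.30, Csn2 0.081 and Nr1d1 −0.056. Csn2 also turned with quantile normalisation (0.021), a percentile over detected probes (0.071), without slide 3 (0.017) and with scan day (0.038), and Mef2d with the authors' deposited table (−0.052); the causes were not tested. Without single arrays Csn2 ran from −0.43 to 0.18 and Csn3 from −0.19 to 0.93. Deviations of same-numbered arrays correlated at 0.14, 0.88, −0.07, 0.48 and −0.09. The positive values belong to pairs that share slide 1, 3 or 7, and the negative ones to pairs on different slides. Sharing a slide and sharing a number can thus not be told apart in the positive pairs. Not every value was over 0.1, so the numbers were not taken to pair the samples. With the replicate block 528 genes had an unadjusted p under 0.05 and 0 were called. Probes at background on some arrays give differences whose size depends on the background correction and on the offset added with it.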

Other observations

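Genes whose BPA250 arrays all lay above, or all below, the BPA25 arrays were looked up after their values were seen, and none passed the test. Arrays without a value were left out, so that some groups hold 4 arrays. There were 21 higher (0.13% of the genes tested) and 12 lower (0.0743%). How many genes would separate in this way with no difference between the doses was not worked out. Among the lower ones, Hjv, the bone morphogenetic protein co-receptor hemojuvelin of liver and muscle, averaged −0.56 ± 0.44 (SD, n = 5) on BPA25 arrays and −2.86 ± 0.94 (SD, n = 4) on the BPA250 arrays with a value, a difference of −2.30 ± 0.89 (SE). Pkia, an inhibitor of protein kinase A, averaged −1.51 ± 0.22 against −2.65 ± 1.03 (SD, n = 5), its groups meeting near −1.86, and Scn4b, a sodium channel subunit, ran from −1.11 to −0.56 against −3.30 to −1.61. Asb12, of the ankyrin repeat and SOCS box family, differed by −1.88 ± 0.78 (SE), and Smyd2, a lysine methyltransferase, by −0.52 ± 0.37.

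Among the higher ones, C4bpa, a chain of the complement regulator C4b-binding protein, ran from −2.41 to −1.43 on BPA25 arrays and from −1.25 to 1.66 on BPA250 arrays, and control arrays averaged −0.49 ± 1.37 (SD, n = 5). Ednra, the endothelin A receptor, ran from −1.16 to −0.40 against −0.35 to −0.25, and Gp9, a platelet glycoprotein, from −1.61 to −1.33 against −1.15 to −0.49. Cds1, an enzyme of phospholipid synthesis, differed by 0.57 ± 0.23 (SE).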
